A study of Mus musculus with 36 samples.

Results

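Skeletal muscle and liver of mice given control IgG were compared gene by gene, to describe how fuel use, storage and secretion were divided between the 2 organs. The mice were wild-type C57BL/6, matched for age and sex, and carried tumors of MC38, a mouse colon carcinoma line, so both organs came from tumor-bearing hosts and no tumor-free animals were compared here. Each organ was represented by 3 bulk RNA sequencing libraries from flash-frozen tissue, and a parallel set of 3 libraries per organ came from mice of the same kind given immune checkpoint blockade (ICB), a high dose of antibodies to PD-1 and CTLA-4. These 12 libraries are part of a series of 36 from 6 tissues. The labels give neither the age and sex of the mice nor the name of the muscle, and no label ties a library to its own animal, so every p-value below measures the spread between these samples, some of which may be technical. Genes were kept where the level was at least 1 FPKM in at least 3 of the 6 IgG libraries, which left 12218 of 18760 named genes. FPKM are fragments per kilobase of gene, relative to the size of the library, so levels can be set side by side between genes. The size used was not the number of reads alone. Relative to the geometric mean of all 36 libraries, the values imply a further factor of 0.724 to 0.814 in muscle and 0.554 to 0.599 in liver. The summed FPKM of the IgG libraries were 492097 to 565422 in muscle and 713885 to 785153 in liver. Where a gene's values are given, they are replicates 1, 2 and 3 of an organ. A gene was called where the difference in log2(FPKM + 1), muscle minus liver, was at least 1 in size and the Benjamini-Hochberg adjusted p of limma's moderated test was at most 0.05. All differences below are on that scale with 3 libraries per organ, positive where muscle was higher, with ± marking the standard error, and the added 1 shrinks the differences of genes with low levels.

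Muscle fibres burn glucose and fatty acids for contraction, hold glycogen for their own use and keep a phosphocreatine reserve that refills ATP within a contraction. Hepatocytes buffer the blood: they store glycogen to release glucose, make glucose from lactate and amino acids, turn surplus fatty acids into ketone bodies that other organs burn, and dispose of nitrogen as urea. They also make most plasma proteins, the apolipoproteins and the bile acids. Many steps shared by both organs are run by isozymes, enzymes for the same reaction encoded by different genes.

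The IgG libraries held 20998855 to 23601750 reads in muscle and 19012992 to 22295325 in liver, and genes of the mitochondrial genome took 8.42% to 10.2% and 4.10% to 5.31% of them. Defining markers went with the tissue labels: all 10 muscle fibre markers were called higher in muscle and all 10 hepatocyte markers higher in liver, where 19.8% and 22.8% of all tested genes were called higher in muscle and liver. In the liver libraries the highest of the muscle fibre markers, the fast myosin light chain Mylpf, read 0.984, 0.987 and 1.55 FPKM. In muscle, albumin (Alb) read 0.733, 0.243 and 16.7 FPKM and Apoa1 0.168, 0 and 7.83 FPKM, both highest in replicate 3, against 47826 and 14136 FPKM on average in liver. Of the 10 hepatocyte markers 9 were highest in that muscle library, and the exception was Cyp2e1, at 83.0, 196 and 98.2 FPKM. Fat cell transcripts were present in muscle and highest in replicate 3, with adiponectin (Adipoq) at 68.4, 71.2 and 207 FPKM and at 0 in all 3 liver libraries. In bulk tissue, fewer cells of a type and less RNA per cell cannot be told apart.

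In each organ the same library was the highest or lowest for several genes that follow feeding, fasting or inflammation. The genes given here were chosen after their values were seen, and the 2 partner libraries did not always lie close together. In muscle replicate 2, Pdk4, the kinase that shuts pyruvate dehydrogenase, stood at the highest of 134, 1147 and 16.9 FPKM, and the mitochondrial carrier Ucp3 at the highest of 13.02, 87.7 and 10.4 FPKM. Foxo1, a regulator of the fasting response, followed with 7.37, 26.4 and 4.86 FPKM and the zinc transporter Slc39a14 with 2.55, 39.7 and 1.45 FPKM. Replicate 2 was at the same time the lowest for fatty acid synthase (Fasn), at 79.0, 12.5 and 252 FPKM, and for ATP citrate lyase (Acly), at 25.5, 10.4 and 119 FPKM. For both of these genes replicate 3 was far above the other muscle libraries. In liver replicate 1, acute-phase transcripts were highest, with serum amyloid Saa1 at 12501, 2693 and 2168 FPKM, hepcidin (Hamp) at 2069, 248 and 558 FPKM and Serpina3n at 7924, 1440.3 and 1258 FPKM. Igfbp1, which is under insulin's restraint in liver, read 258, 39.3 and 38.9 FPKM there, and the cytochrome P450 genes Cyp2c29 (168, 1689 and 1647 FPKM) and Cyp1a2 (85.5, 600.5 and 532 FPKM) were lowest. These 2 libraries carry the same number in their titles.

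**Figure D1:**
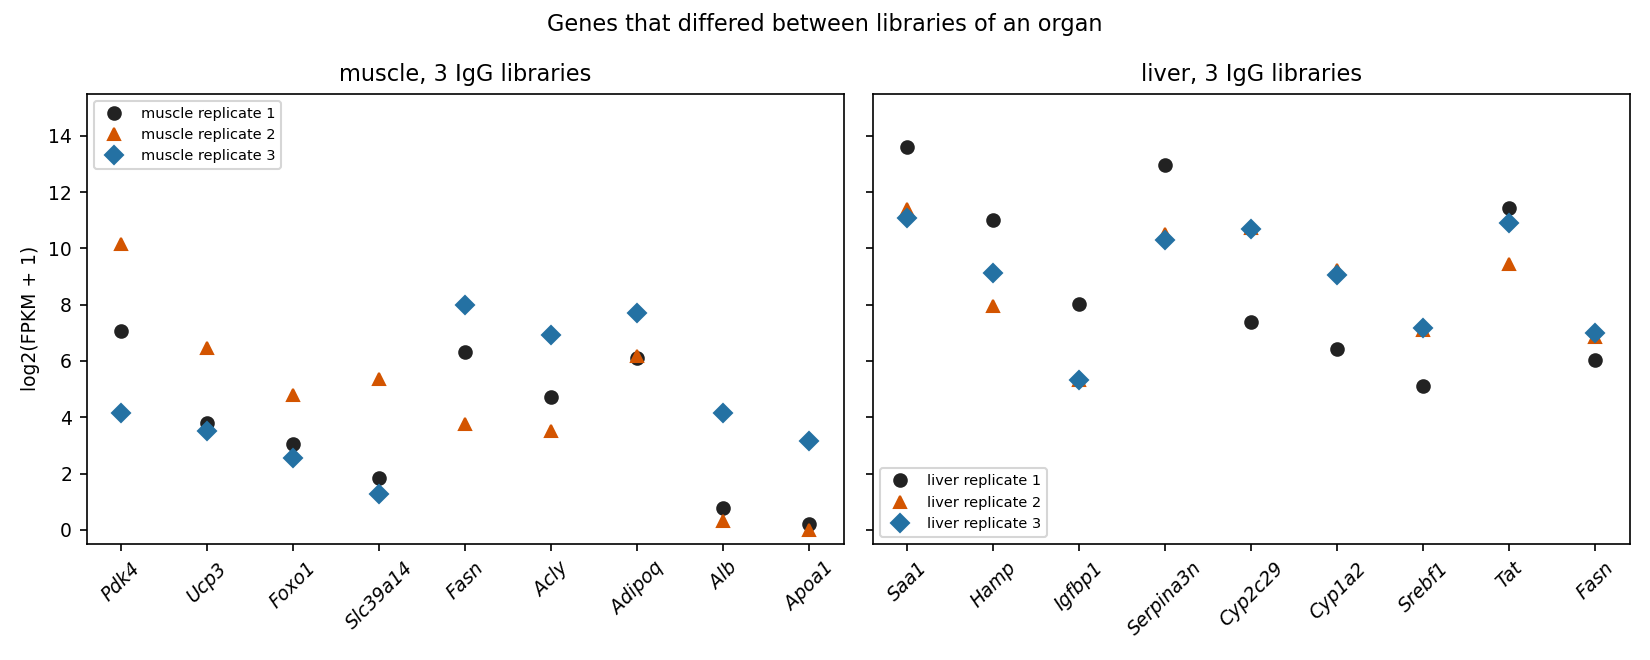
Level of 9 genes in the muscle libraries (left) and 9 in the liver libraries (right), as log2(FPKM + 1), IgG only, with 1 symbol per library. Muscle replicate 2 sits highest for Pdk4, Ucp3, Foxo1 and Slc39a14, muscle replicate 3 for Fasn, Acly, Adipoq, Alb and Apoa1, and liver replicate 1 is highest for Saa1, Hamp, Igfbp1 and Serpina3n and lowest for Cyp2c29, Cyp1a2, Srebf1 and Fasn.

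The comparison called 2421 genes higher in muscle and 2788 higher in liver, which is 19.8% and 22.8% of the 12218 genes tested, with a median difference of -0.01 over all of them. Of the calls 46.5% were thus toward muscle, and 61.4% with each library brought to the same FPKM sum, a scaling that raised the median difference of all genes by 0.38. In 32.7% of the tested genes every muscle library lay above every liver library, and in 34.8% every liver library lay above every muscle library. The largest differences toward muscle belonged to the contractile apparatus. Acta1, the skeletal alpha-actin (ENSMUSG00000031972.5, chr8:123891769-123894751), stood at 26739.5, 31856 and 32060.2 FPKM in muscle and 0, 0.0975 and 0 FPKM in liver, a difference of 14.83 ± 0.18 (limma adjusted p = 6.05e-09). Tnnt3 (fast troponin T, 13.85), Atp2a1 (the calcium pump of fast fibres, 13.34) and Myh4 (the fastest myosin heavy chain, 13.01) came next. Toward liver they belonged to plasma proteins. Alb (ENSMUSG00000029368.10, chr5:90460897-90476602) stood at 0.733, 0.243 and 16.7 FPKM in muscle and 34886, 49816 and 58776 FPKM in liver, a difference of -13.76 ± 0.89 (limma adjusted p = 4.45e-06), ahead of Hpx, which carries haem (-13.35), and the protease inhibitor Serpina1e (-12.90).

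**Figure D2:**
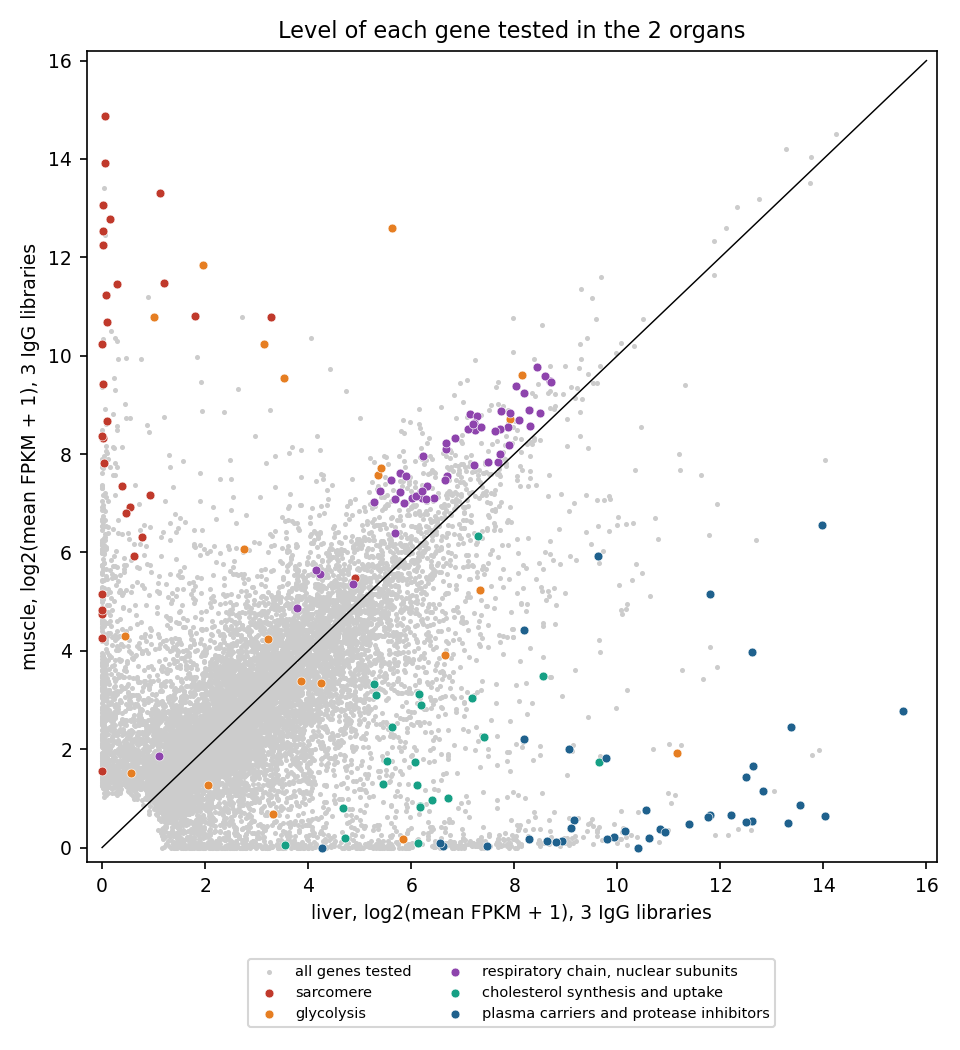
Mean level of each of the 12218 genes tested, as log2(mean FPKM + 1), in liver (x axis) and muscle (y axis), with 5 gene lists in color and the line of equal levels. Sarcomere genes lie along the muscle axis and plasma protein genes along the liver axis, glycolysis genes fall on both sides, and nuclear respiratory chain genes lie close above the line.

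The sequence just upstream of the annotated start is shown for 4 genes whose levels set the organs apart, 2 for each organ: Alb and fibrinogen beta (Fgb) for liver, Myh4 and the calcium buffer parvalbumin (Pvalb) for muscle. They were chosen after the matches were seen, because the window touches no annotated exon and holds a match to a motif searched. Bases -200 to -1 from the RefSeq start are printed 5′ to 3′ on the gene's strand (build GRCm38.p6), and capitals mark matches to any of 5 motifs. The motifs were CAGCTG (an E-box bound by myogenic factors), the MEF2 consensus, GTTAAT (part of an HNF1 site), CAAAGTCC (part of an HNF4 site) and TATAAA (the TATA box), each searched on both strands. In Myh4 the MEF2 match overlaps 1 of 2 TATA box matches.
Alb, chr5:90460670-90460869, plus strand: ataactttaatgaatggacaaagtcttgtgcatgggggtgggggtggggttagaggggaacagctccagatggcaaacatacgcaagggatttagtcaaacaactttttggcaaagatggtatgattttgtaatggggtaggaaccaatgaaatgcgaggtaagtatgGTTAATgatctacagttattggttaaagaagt
Fgb, chr3:83049864-83050063, minus strand: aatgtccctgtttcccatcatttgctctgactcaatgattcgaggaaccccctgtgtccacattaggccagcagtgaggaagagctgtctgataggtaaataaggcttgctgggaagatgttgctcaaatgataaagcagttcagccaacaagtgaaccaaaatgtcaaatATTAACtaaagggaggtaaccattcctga
Myh4, chr11:67237612-67237811, plus strand: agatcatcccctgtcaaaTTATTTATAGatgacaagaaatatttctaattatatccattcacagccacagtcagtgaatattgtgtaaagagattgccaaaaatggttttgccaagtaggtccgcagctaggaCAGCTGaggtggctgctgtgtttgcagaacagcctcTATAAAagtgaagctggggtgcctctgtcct
Pvalb, chr15:78206401-78206600, minus strand: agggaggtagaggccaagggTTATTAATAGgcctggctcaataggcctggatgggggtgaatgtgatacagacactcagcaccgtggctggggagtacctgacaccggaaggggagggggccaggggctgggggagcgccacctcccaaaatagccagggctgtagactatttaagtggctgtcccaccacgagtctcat
Among all 32851 RefSeq promoters, 2.92% held a MEF2 match and 6.43% GTTAAT in the 250 bases before the start. The MEF2 share was 3.49% of the 2295 promoters of genes called higher in muscle, 1.61% of the 2663 of genes called higher in liver and 1.43% of the 6665 of tested genes not called. GTTAAT was held by 3.79%, 6.80% and 3.54% of these groups. Its share was thus the highest of the 3 groups among liver genes, where it was near the 6.43% of all promoters. CAGCTG was held by 4271 of the 32851 promoters and by 14.8%, 12.1% and 11.3% of the same 3 groups, CAAAGTCC by 1.20% of all and 1.39%, 2.03% and 1.07%, and TATAAA by 12.4% of all and 9.19%, 9.80% and 5.57%. The promoters stand for 1752 genes called higher in muscle and 2065 called higher in liver, and a gene with several starts counts once per start. A match is a description of the letters and says nothing of binding.

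Genes for the uptake and splitting of glucose divided between the organs by family member. Of 21 glycolysis genes tested, the calls were 11 higher in muscle and 5 higher in liver, with 5 not called, and the median difference was 1.00. As shares these were 52.4% and 23.8%, beside 19.8% and 22.8% of all genes tested, so the liver side was near the background. For entry of glucose, the insulin-responsive transporter Slc2a4 (ENSMUSG00000018566.14, chr11:69942539-69948188) stood at 168, 196 and 204 FPKM in muscle and 0.30034, 0.108 and 0.0474 FPKM in liver, a difference of 7.37 ± 0.18 (limma adjusted p = 2.5e-08). Slc2a2, the liver's high-capacity transporter that passes glucose both ways (ENSMUSG00000027690.13, chr3:28697903-28731359), stood at 0.0181, 0.0110 and 0.124 FPKM in muscle and 41.4, 69.4 and 75.5 FPKM in liver, a difference of -5.86 ± 0.25 (limma adjusted p = 3.64e-07). For both genes the organs did not overlap in any library. Slc2a12, a further transporter of insulin-responsive tissue, was higher in muscle (1.93), and Slc2a9, which carries urate, in liver (-3.54). Hexokinase 2 (Hk2), the insulin-responsive form of muscle, stood at 74.1, 37.2 and 69.0 FPKM in muscle and 1.05, 1.98 and 0.607 FPKM in liver (4.77 ± 0.33).

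Further down the pathway the muscle members were among the most abundant transcripts of that organ. Aldoa, the muscle aldolase, read 6039, 6801 and 5718 FPKM in muscle and 58.0, 50.5 and 36.9 FPKM in liver (6.99 ± 0.24). Muscle enolase Eno3 had 3034, 4318 and 3664 FPKM in muscle and 2.78, 3.32 and 2.56 FPKM in liver (9.87 ± 0.20), and ubiquitous Eno1 had 25.7, 38.7 and 45.8 FPKM in muscle and 138, 202 and 141 FPKM in liver (-2.11 ± 0.27). The 2 enolases thus stood in opposite order in the organs. Pgam2 (9.80), Pfkm (7.11) and Pkm (5.95) were higher in muscle, and Pgam1 (-2.77) and the liver pyruvate kinase Pklr (-5.67) were higher in liver. Of the summed FPKM of the aldolase family, Aldoa made up 99.9% in muscle. Phosphoglycerate kinase Pgk1 was at 329.97, 535 and 398 FPKM in muscle and 221, 268 and 232 FPKM in liver, a difference of 0.78 ± 0.24 (limma adjusted p = 0.0218) that was under the size required. The list as a whole took 2.84% ± 0.171 (SD, n = 3) of the summed FPKM in muscle and 0.443% ± 0.0176 in liver. Gapdh, which has many near-identical copies in the genome, read only 191 FPKM in muscle, and its level is uncertain.

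**Figure D3:**
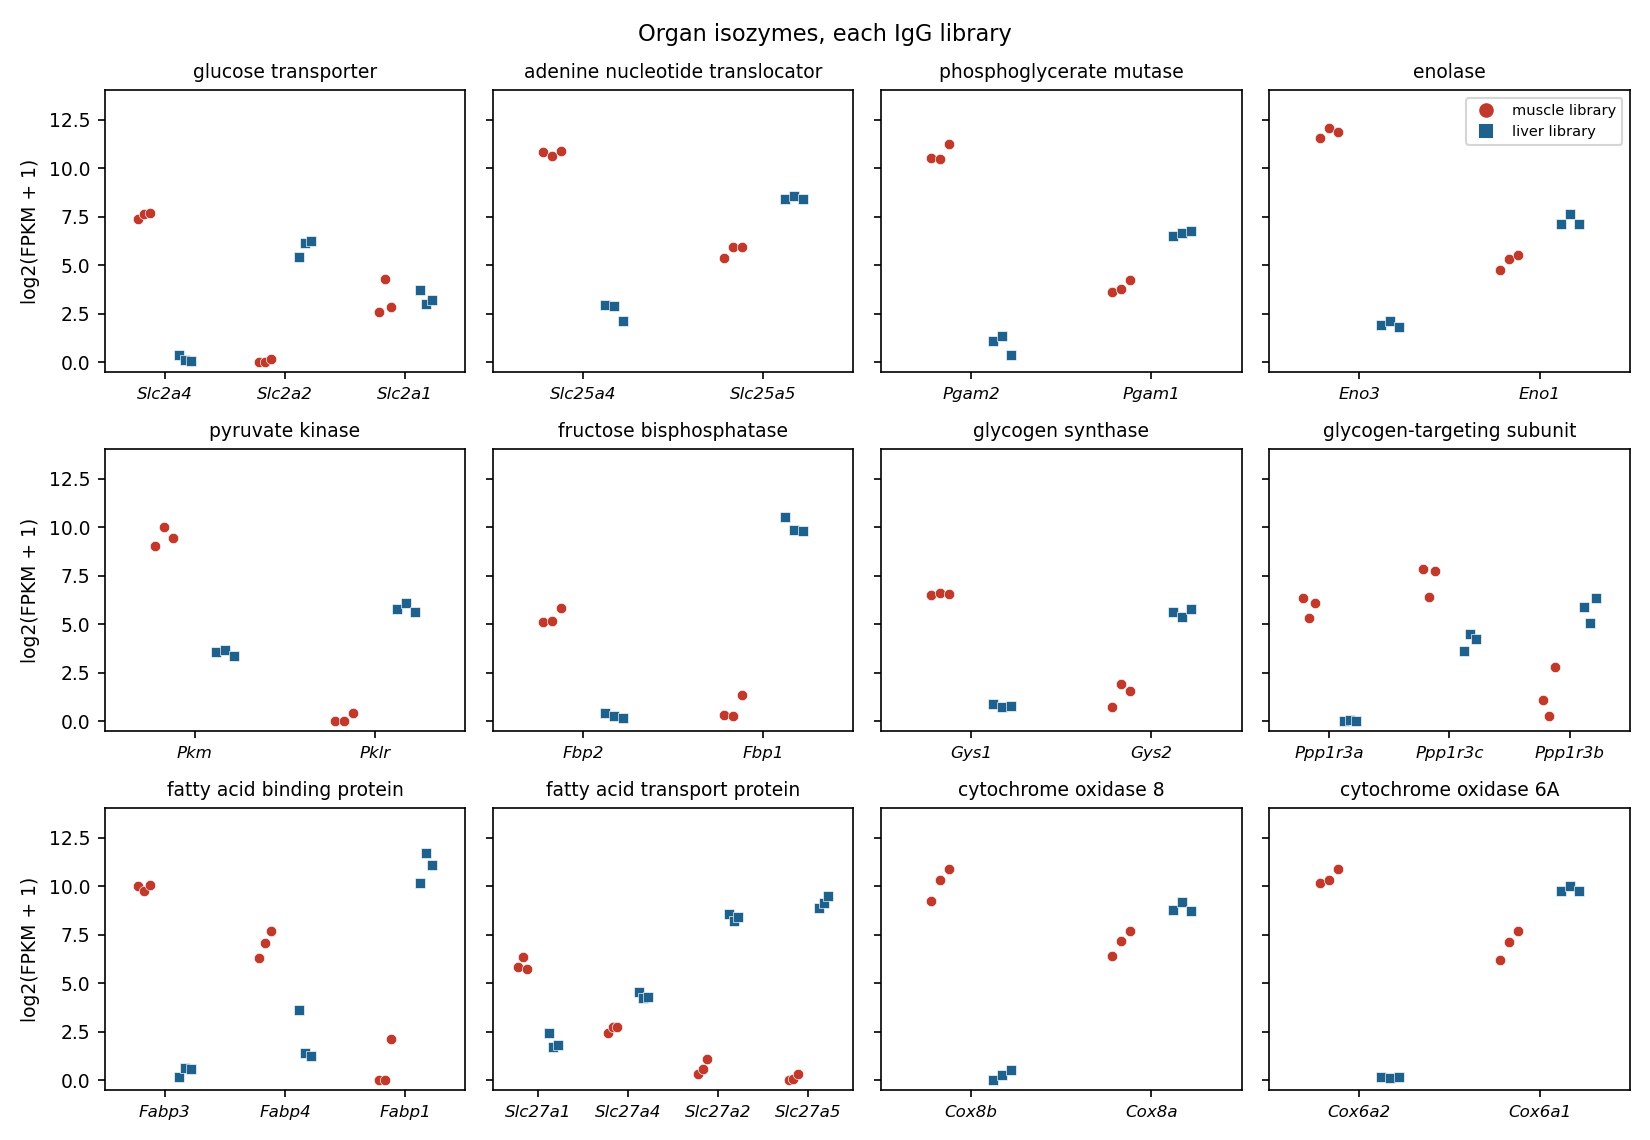
Level of isozymes and paired genes in each IgG library, as log2(FPKM + 1), in 12 panels of 1 enzyme or protein family each, with muscle libraries as circles and liver libraries as squares. Each panel holds at least 1 gene higher in every muscle library than in any liver library and at least 1 with the reverse order, as for Slc2a4 and Slc2a2 or Gys1 and Gys2.

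At the branch point of pyruvate, 10 of 18 lactate and pyruvate genes were called higher in muscle (55.6%) and 3 in liver (16.7%). Of all genes tested, 19.8% and 22.8% were so called. Slc16a3, the carrier through which glycolytic cells export lactate, read 74.8, 89.9 and 84.1 FPKM in muscle and 0.518, 0.324 and 0.434 FPKM in liver (5.88 ± 0.17). Slc16a7, which has a high affinity for pyruvate and lactate, went the other way with 0.273, 0.144 and 0.587 FPKM in muscle and 10.04, 8.69 and 10.8 FPKM in liver (-3.03 ± 0.19). Lactate dehydrogenase B (Ldhb), the form of oxidative tissue, read 151, 107 and 132 FPKM in muscle and 1.51, 1.53 and 0.997 FPKM in liver (5.80 ± 0.20), while the abundant Ldha read 1071, 1351 and 1191 FPKM in muscle and 849, 529 and 466 FPKM in liver (1.01 ± 0.29), a call that was lost without muscle replicate 2, liver replicate 2 or liver replicate 3. The pyruvate dehydrogenase subunit Pdha1 (1.78) was higher in muscle, and so were the phosphatase Pdp1 that opens the enzyme (2.97) and its inhibitory kinases Pdk2 (224, 209.5 and 226 FPKM against 45.6, 48.9 and 43.8 in liver) and Pdk4. Pdk4 varied widely between the muscle libraries and yet lay above liver in each, with 2.08, 0.981 and 0.798 FPKM there and a difference of 5.98 ± 1.26 (limma adjusted p = 0.0036). Without muscle replicate 2 the difference was 4.47 (limma adjusted p = 0.00254).

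Genes for glucose release were mostly higher in liver. Of 12 gluconeogenesis genes, 7 were called higher in liver (58.3%) and 3 in muscle (25.0%), beside 22.8% and 19.8% of all genes tested. G6pc, the phosphatase that frees glucose for export, read 0.0863, 0.0262 and 0.320 FPKM in muscle and 122, 79.9 and 80.8 FPKM in liver (-6.36 ± 0.22). Pck1, the cytosolic enzyme that commits oxaloacetate to glucose, read 28.3, 56.7 and 16.4 FPKM in muscle and 2258, 668 and 1809 FPKM in liver (-5.50 ± 0.55), and Fbp1 read 0.275, 0.223 and 1.54 FPKM in muscle and 1449.9, 912 and 883 FPKM in liver (-9.38 ± 0.33). The muscle libraries held Fbp2, the muscle bisphosphatase, at 33.6, 35.0 and 56.6 FPKM (5.08), together with the widely expressed phosphatase G6pc3 (2.15) and the mitochondrial Pck2 (1.49). Fructose and galactose use leaned to liver in 8 of 9 genes, among them ketohexokinase (Khk) at 13.6, 17.7 and 15.9 FPKM in muscle and 155, 457 and 334 FPKM in liver (-4.11 ± 0.37) and triokinase (Tkfc, -5.91), and the exception was Akr1b3, the aldose reductase (2.85).

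Genes for fatty acid entry divided by family member as well. Of 20 genes for uptake and activation, the calls were 6 higher in muscle and 10 higher in liver, with 4 not called. Lpl, the lipase that frees fatty acids from circulating triglyceride at the vessel wall, stood at 239, 166 and 135 FPKM in muscle and 2.71, 5.12 and 3.88 FPKM in liver, a difference of 5.19 ± 0.27 (limma adjusted p = 1.27e-06). The fatty acid translocase Cd36 stood at 201, 222 and 152 FPKM in muscle and 19.9, 14.9 and 19.3 FPKM in liver (3.33 ± 0.21), and Fabp3, the heart and muscle binding protein, at 1029, 859 and 1066 FPKM in muscle and 0.115, 0.546 and 0.501 FPKM in liver (9.48 ± 0.20). In liver the corresponding gene was Fabp1, at 0, 0 and 3.33 FPKM in muscle and 1135, 3312 and 2199 FPKM in liver, a difference of -10.28 ± 0.62 (limma adjusted p = 2.79e-06), with the transport proteins Slc27a2 (-7.70) and Slc27a5 (-9.04) against Slc27a1 in muscle (3.97). Fabp2, known from intestine, was at 0 in every muscle library and at 50.7, 62.5 and 30.5 FPKM in liver. Fabp4 (76.6, 132 and 208 FPKM in muscle and 11.4, 1.70 and 1.38 FPKM in liver) is a fat cell gene too and was highest in the muscle library with the most Adipoq, whereas Lpl was lowest there.

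For mitochondrial fatty acid oxidation itself the calls were near the shares of all genes. Of 26 genes tested, the calls were 4 higher in muscle and 6 higher in liver, with 16 not called (61.5%, against 57.4% of all genes tested), and the median difference was -0.50. Regardless of size, every liver library lay above every muscle library in 15 of the 26, and the reverse held in 5. Of all genes tested, 34.8% and 32.7% were so ordered. Hadha, a subunit of the trifunctional protein, stood at 58.5, 59.9 and 48.7 FPKM in muscle and 77.3, 61.6 and 60.8 FPKM in liver (-0.25 ± 0.19, limma adjusted p = 0.278), and its partner Hadhb at 45.6, 36.9 and 39.7 FPKM in muscle and 37.3, 27.6 and 27.3 FPKM in liver (0.40 ± 0.19, limma adjusted p = 0.104), and neither was called. Cpt1a, the liver gatekeeper for entry of acyl chains, read 4.31, 5.22 and 2.98 FPKM in muscle and 189, 94.6 and 126 FPKM in liver (-4.70 ± 0.29). Its muscle counterpart Cpt1b read only 2.30, 0.581 and 0.969 FPKM in muscle and 0, 0 and 0.0489 in liver and was not tested, and 81.4% of its exon bases are shared with another annotated gene on the same strand, so its level here is uncertain. Crat, which exports surplus acetyl groups as carnitine esters (107, 131 and 116 FPKM in muscle and 26.3, 11.2 and 9.89 FPKM in liver, 2.95 ± 0.34), the thioesterase Acot2 (3.84) and Ucp3 (4.60) were higher in muscle. Acaa2, the thiolase (-2.54), and the short-chain dehydrogenase Acads (-1.51) were higher in liver. With each library brought to the same FPKM sum, the counts were 5 and 5 and the median was -0.03.

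Peroxisomal and omega oxidation genes, by contrast, leaned to liver, with 21 of 25 genes called higher there, 0 higher in muscle and a median of -3.36. Acox2, an oxidase that acts on branched acyl chains and bile acid precursors, stood at 0.0141, 0.171 and 0.176 FPKM in muscle and 102, 64.0 and 71.4 FPKM in liver (-6.13 ± 0.22). The omega hydroxylases Cyp4a10 (-8.28) and Cyp4a14 (-8.92) differed most, though Cyp4a genes are near-identical and reads may have been split among them. Abcd2, a peroxisomal importer, was among the 4 not called and overlapped, at 10.4, 4.73 and 16.19 FPKM in muscle and 3.68, 5.27 and 4.53 FPKM in liver. It was called higher in muscle without muscle replicate 2 and on the scale of equal FPKM sums.

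The defining gene of ketone use was higher in muscle. Oxct1, the transferase that lets tissues burn ketone bodies and that liver is known to lack, stood at 102, 73.1 and 78.9 FPKM in muscle and 1.21, 1.90 and 2.05 FPKM in liver, a difference of 4.97 ± 0.21 (limma adjusted p = 3.64e-07). For the steps shared by both directions, Bdh1 was higher in liver (-1.86) and Acat1 was not called (-0.72).

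Nearly all called genes of the oxidative core were higher in muscle. Of 18 tricarboxylic acid cycle genes, the calls were 10 higher in muscle and 1 higher in liver, with 7 not called, and citrate synthase (Cs) read 254, 290.3 and 250.1 FPKM in muscle and 50.2, 64.8 and 53.2 FPKM in liver (2.22 ± 0.19). Idh3a, a catalytic subunit of the NAD-dependent isocitrate dehydrogenase (3.11), was higher in muscle. Succinate-CoA ligase swapped its partner subunits: Sucla2, which forms ATP, was higher in muscle (1.23), and Suclg2, which forms GTP, was higher in liver (-2.22). Of 54 nuclear respiratory chain genes, 28 were called higher in muscle, 0 higher in liver, and all 54 differences were positive, between 0.16 and 1.87. Many of the list lay near the required size, and the count was 47 with each library brought to the same FPKM sum and 46 with quantile normalization. Cycs, cytochrome c, read 117, 183 and 157 FPKM in muscle and 44.0, 44.4 and 34.8 FPKM in liver (1.85 ± 0.22), and the ATP synthase subunit Atp5b read 686, 891 and 725 FPKM in muscle and 363, 392.4 and 409.8 FPKM in liver (0.97 ± 0.21).

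Subunits that exist as organ pairs differed much more than the chain as a whole. Cox6a2, the heart and muscle form of this cytochrome oxidase subunit, stood at 1157, 1293 and 1873 FPKM in muscle and 0.140, 0.110 and 0.121 FPKM in liver (10.29 ± 0.21), and the liver form Cox6a1 at 73.1, 140.3 and 208 FPKM in muscle and 851, 1033 and 850.4 FPKM in liver (-2.81 ± 0.37). Cox7a1 (7.48) and Cox8b (9.87) were likewise higher in muscle and Cox8a (-1.80) in liver. The ATP/ADP exchangers divided the same way, with Slc25a4 at 1834, 1597 and 1880.2 FPKM in muscle and 6.86, 6.52 and 3.36 FPKM in liver (8.12 ± 0.26) and Slc25a5 at 41.3, 60.4 and 60.7 FPKM in muscle and 345.5, 382 and 339.1 FPKM in liver (-2.71 ± 0.21). Cox7a2, the partner of Cox7a1, was not called (0.69). Of 13 genes of the mitochondrial genome, 2 were called, both higher in muscle, mt-Atp6 and mt-Nd3. That is 15.4%, below the 19.8% of all genes tested that were called higher in muscle. That count was 6 with libraries brought to the same FPKM sum, 7 with quantile normalization and 5 without muscle replicate 1, and mt-Atp6 lost its call without any 1 of muscle replicates 2 and 3 and the 3 liver libraries. The most abundant, mt-Co1, read 22266, 23886 and 23969 FPKM in muscle and 17579.7, 20797 and 20087 FPKM in liver (0.27 ± 0.39, limma adjusted p = 0.575). Others, such as mt-Co2 at 135, 341.8 and 2393 FPKM in muscle, stood far below mt-Co1 and varied widely. Genes of this genome have near-identical nuclear copies, so their levels are uncertain.

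Genes of the buffer that holds ATP steady reached high levels in muscle. Of 16 phosphocreatine and adenine nucleotide genes, the calls were 9 higher in muscle and 6 higher in liver, with 1 not called. Creatine kinase Ckm (ENSMUSG00000030399.2, chr7:19404776-19422841) stood at 5174, 6019 and 5728 FPKM in muscle and 0.0326, 0.0514 and 0.0283 FPKM in liver, a difference of 12.41 ± 0.16 (limma adjusted p = 6.05e-09), and its mitochondrial partner Ckmt2 at 636, 1027 and 569.7 FPKM in muscle and 0.0639, 0.353 and 0.111 FPKM in liver (9.27 ± 0.25). The creatine importer Slc6a8 was higher in muscle (2.86), whereas Gamt, the enzyme of the last step in creatine synthesis, was higher in liver, with 3.46, 5.34 and 8.02 FPKM in muscle and 31.5, 158 and 109 FPKM in liver (-3.71 ± 0.56). Gatm, which runs the step before it, was near the floor in both organs, at 0.104, 0.0632 and 0.0990 FPKM in muscle and 0.0316, 0.0749 and 0.137 FPKM in liver. Myoglobin (Mb), the oxygen store, read 2289, 2438 and 2315 FPKM in muscle and 0.607, 0.957 and 0.987 FPKM in liver (10.32 ± 0.17), though 31.9% of its exon bases lie under a gene on the opposite strand. Adenylate kinases split by member, with Ak1 (8.19) in muscle and Ak3 (-2.33) and Ak4 (-3.51) in liver. The purine nucleotide cycle did so too, with Ampd1 at 143, 149.7 and 99.8 FPKM in muscle and 0 in every liver library, at least 5576-fold higher against a floor of 3 reads over the liver libraries, and Adssl1 (5.34) against Adss (-1.21, not called with each library brought to the same FPKM sum).

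Of the lists on function, the sarcomere took the largest share of the summed FPKM of muscle. Of 33 listed sarcomere genes 32 had values here. These took 18.4% ± 0.649 (SD, n = 3) of the summed FPKM in muscle and 0.00621% ± 0.000860 in liver, and 30 of the 31 tested were called higher in muscle. The exception was Tpm3, a tropomyosin that other cells use as well (47.9, 36.2 and 47.2 FPKM in muscle and 26.4, 35.4 and 25.4 FPKM in liver, 0.58). Fast myosins led in level, with Myh4 at 8233, 11084 and 6324 FPKM, Myh1 at 1482, 1520.2 and 601 FPKM and Myh2 at 570.4, 241 and 172 FPKM, while slow Myh7 stood at 51.4, 24.6 and 27.7 FPKM. The order Myh4, Myh1, Myh2, Myh7 held in each library. Of 28 genes for excitation and calcium handling, 26 were called higher in muscle. Pvalb, the calcium buffer of fast fibres, read 4438, 9439.6 and 11618 FPKM in muscle and 0 in every liver library, at least 106233-fold higher against the same floor. Atp2a2, the calcium pump of slow fibres and of most other cells, overlapped between the organs at 53.7, 39.1 and 36.03 FPKM in muscle and 113, 48.0 and 72.7 FPKM in liver (-0.78) and was called higher in liver without liver replicate 2.

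Genes of the urea cycle and of a list of amino acid breakdown in liver were higher in liver almost without exception. All 8 urea cycle genes tested were called higher in liver, with a median of -6.04. Arg1, which releases urea, stood at 0.494, 0.29996 and 1.85 FPKM in muscle and 2865, 1616 and 1824 FPKM in liver, a difference of -10.17 ± 0.34 (limma adjusted p = 1.05e-07), and Cps1, which fixes ammonia, at 0, 0 and 0.588 FPKM in muscle and 1419.9, 808 and 1463 FPKM in liver, a difference of -9.99 ± 0.30 (limma adjusted p = 5.62e-08). Of 33 genes on the list of amino acid breakdown in liver, 32 were called higher in liver and 0 in muscle. That list was drawn up for liver, so its count does not describe amino acid breakdown as a whole. Mat1a, the liver's methionine adenosyltransferase (-11.49), tyrosine aminotransferase Tat at 0, 0.105 and 0.148 FPKM in muscle and 2784, 704 and 1889 FPKM in liver (-10.48 ± 0.45) and Hpd, an enzyme of tyrosine breakdown (-9.69), were among those that differed most. The gene not called was Got1, the cytosolic aspartate aminotransferase of the malate shuttle, whose values overlapped at 236, 498 and 255 FPKM in muscle and 434, 110.4 and 135 FPKM in liver. Without liver replicate 1 it was called higher in muscle.

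The breakdown of branched-chain amino acids is known to start in muscle. Of 18 genes, the calls were 2 higher in muscle and 5 higher in liver, with 11 not called, shares of 11.1%, 27.8% and 61.1% beside 19.8%, 22.8% and 57.4% of all genes tested. Regardless of size, every liver library lay above every muscle library in 11 of the 18, and the reverse held in 2. Of all genes tested, 34.8% and 32.7% were so ordered. The aminotransferase Bcat2 stood at 21.8, 33.6 and 35.9 FPKM in muscle and 9.91, 10.04 and 7.06 FPKM in liver (1.64 ± 0.24), and Bckdk, the kinase that holds back the next enzyme complex, at 43.1, 49.1 and 53.5 FPKM in muscle and 4.47, 5.25 and 4.01 FPKM in liver (3.15 ± 0.18). Its opponent, the phosphatase Ppm1k, was higher in liver, with 4.51, 3.46 and 3.71 FPKM in muscle and 12.8, 16.8 and 24.0 FPKM in liver (-1.91 ± 0.24). The complex subunits Bckdha (-0.62, with 61.7% of its exon bases under a gene on the opposite strand) and Bckdhb (-0.97) were not called. Together the list took 0.0793%, 0.0777% and 0.0782% of the summed FPKM in muscle and 0.0694%, 0.0837% and 0.109% in liver, which overlap. The count higher in liver was 1 with each library brought to the same FPKM sum and 3 without liver replicate 3.

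Nitrogen is known to leave muscle as glutamine and alanine. Of 16 genes for its transfer, the calls were 3 higher in muscle and 7 higher in liver, with 6 not called. These are shares of 18.8% and 43.8% for muscle and liver, beside 19.8% and 22.8% of all genes tested. Glutamine synthetase (Glul) overlapped at 348, 1289 and 444 FPKM in muscle and 689, 796 and 854 FPKM in liver (-0.41 ± 0.46, limma adjusted p = 0.472), with muscle replicate 2 above all liver libraries. The liver glutaminase Gls2 stood at 0, 0.0364 and 0.137 FPKM in muscle and 81.0, 145 and 184 FPKM in liver (-6.95 ± 0.29). The alanine aminotransferase Gpt was higher in liver (-3.45), while Gpt2 was not called and read 64.9, 157 and 74.1 FPKM in muscle and 211, 100.4 and 108 FPKM in liver. Slc38a3, an importer of glutamine, stood at 10.5, 11.4 and 8.43 FPKM in muscle and 281, 492 and 488 FPKM in liver (-5.21 ± 0.26), and glutamate dehydrogenase Glud1 was higher in liver too (-3.12).

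**Figure D4:**
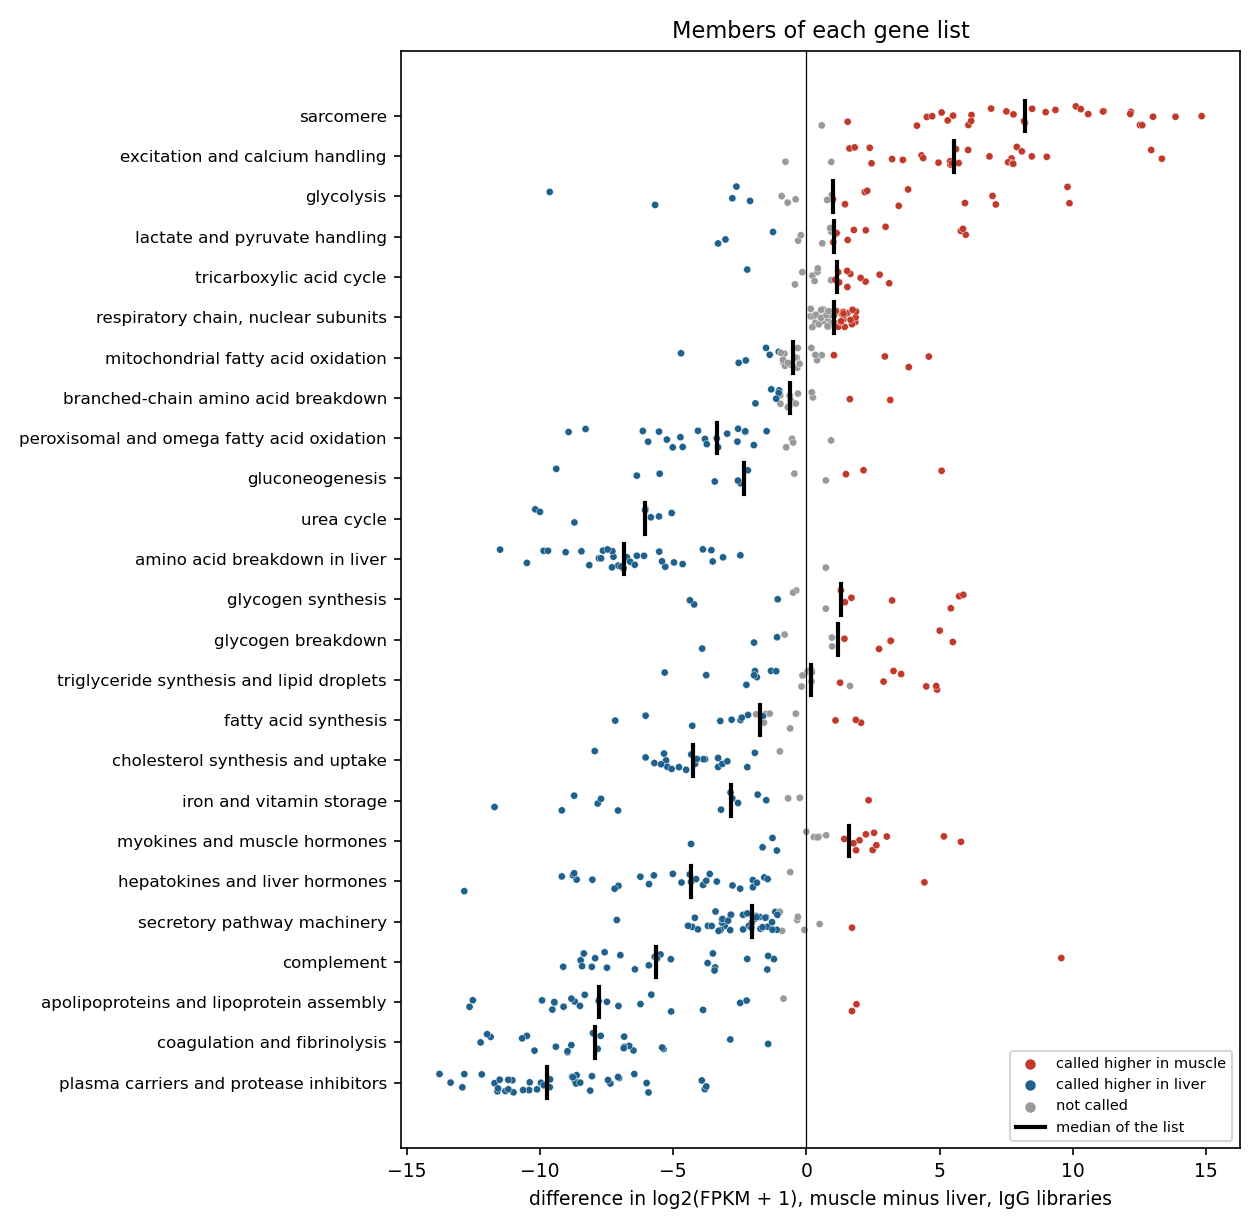
Difference in log2(FPKM + 1), muscle minus liver, of every tested member of 25 gene lists, with 1 point per gene colored by its call and a bar at each list's median. Sarcomere and calcium handling genes lie to the right, plasma protein, coagulation and urea cycle genes to the left, mitochondrial fatty acid oxidation and branched-chain genes near 0, and glycolysis and glycogen genes on both sides.

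Both organs store glycogen, and the genes for it divided by family member. Of 13 genes for synthesis, the calls were 7 higher in muscle and 3 higher in liver, with 3 not called. As shares these were 53.8% and 23.1%, beside 19.8% and 22.8% of all genes tested, so the liver side was near the background. Of the glycogen synthases, Gys1 stood at 91.6, 95.2 and 92.0 FPKM in muscle and 0.853, 0.688 and 0.757 FPKM in liver, a difference of 5.73 ± 0.15 (limma adjusted p = 3.68e-08). Gys2 stood at 0.666, 2.79 and 1.99 FPKM in muscle and 49.4, 41.3 and 54.9 FPKM in liver, a difference of -4.21 ± 0.30 (limma adjusted p = 8.53e-06). Gys1 made up 98.1% of the pair in muscle and Gys2 98.4% in liver. The phosphatase subunits that bring the enzyme to the glycogen particle divided too: Ppp1r3a was at 80.1, 39.7 and 67.8 FPKM in muscle and 0.0136, 0.0430 and 0.0237 FPKM in liver (5.89 ± 0.26) and Ppp1r3b at 1.11, 0.214 and 6.03 FPKM in muscle and 57.7, 32.2 and 80.2 FPKM in liver (-4.37 ± 0.62). Ppp1r3c, which both organs use, was higher in muscle, with 226, 85.3 and 213 FPKM in muscle and 11.2, 21.3 and 18.1 FPKM in liver (3.22 ± 0.40), and the primer glycogenin (Gyg) differed by 5.42. Ugp2, which supplies the sugar donor, was higher in muscle (1.69), and the regulatory kinase Gsk3a was not called (0.73).

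For breakdown, 6 of 12 genes were called higher in muscle and 3 in liver. Liver phosphorylase Pygl stood at 4.69, 3.54 and 13.5 FPKM in muscle and 67.3, 132 and 138 FPKM in liver (-3.91 ± 0.46). The phosphorylases analysed were only Pygl and Pygb, and the muscle form Pygm was not among the genes compared. The total phosphorylase level of muscle therefore cannot be read from these values. Phosphorylase kinase, which switches phosphorylase on, had the catalytic subunit Phkg1 (5.50) and the alpha subunit Phka1 (5.01) in muscle and Phka2 in liver (-1.10), the last not called with each library brought to the same FPKM sum. Stbd1, which tethers glycogen to membranes, was higher in liver, with 23.7, 14.1 and 21.5 FPKM in muscle and 90.9, 64.7 and 80.8 FPKM in liver (-1.96 ± 0.24). G6pc, described above, is what lets liver glycogen leave as glucose.

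Lipid storage genes divided by family member, and some of those higher in muscle are genes of fat cells. Of 23 genes for triglyceride synthesis and lipid droplets, the calls were 7 higher in muscle and 8 higher in liver, with 8 not called. The shares were 30.4% and 34.8%, beside 19.8% and 22.8% of all genes tested. Plin2, the main droplet coat of hepatocytes, read 11.7, 14.9 and 22.3 FPKM in muscle and 51.4, 98.3 and 95.4 FPKM in liver (-2.25 ± 0.32), and Cideb, which loads lipid onto lipoproteins, 0.0697, 0 and 0.0796 FPKM in muscle and 35.4, 45.2 and 42.2 FPKM in liver (-5.31 ± 0.17), with 76.3% of its exon bases under a gene on the opposite strand. Dgat2, the acyltransferase that finishes triglyceride, was higher in liver (-1.86), while Lpin1, a phosphatase of the step before, was not called and overlapped at 107, 264 and 83.9 FPKM in muscle and 123, 10.5 and 55.7 FPKM in liver. Fitm1, which helps droplets form in muscle, read 143, 171 and 251 FPKM in muscle and 13.2, 21.7 and 20.4 FPKM in liver (3.27 ± 0.28), and Agpat1 differed by 2.90. Triglyceride breakdown, a separate list of 10 genes, had 2 called higher in muscle and 6 higher in liver, with a median of -2.75. Its largest difference toward muscle was that of the lipase Pnpla2, which opens droplets, with 197, 549.9 and 306 FPKM in muscle and 85.7, 41.2 and 37.8 FPKM in liver (2.63 ± 0.43). Lipc, the hepatic lipase, was at 0 in muscle and at 28.2, 71.2 and 76.0 FPKM in liver.

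Plin1 (17.2, 15.9 and 36.6 FPKM in muscle), Plin4 (75.5, 118 and 66.5 FPKM) and Cidec (66.5, 132 and 164 FPKM) were called higher in muscle, and fat cells express all 3. All 8 tested adipocyte markers were called higher in muscle, with a summed level of 1107 to 2489 FPKM in muscle and 45.7 to 108 in liver, where Adipoq, Plin1 and Retn were at 0. The marker list includes Cidec, Plin1 and Fabp4 themselves, and also Pnpla2, which muscle fibres use and without which the sums were 910.3 to 2183 FPKM in muscle and 7.86 to 22.7 in liver. Lpl, Pnpla2, Acacb and Scd2 were higher in muscle like these markers, and the part of fat cells in their difference was not tested. In muscle replicate 3, where Adipoq was highest, Scd2 was highest too (9.54, 8.42 and 26.3 FPKM in the 3 libraries), Pnpla2 lay between its other values, and Lpl, Acacb and Plin4 were lowest.

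Levels of fatty acid synthesis genes depended on the muscle library. Of 18 genes, the calls were 3 higher in muscle and 9 higher in liver, with 6 not called. Fasn overlapped between the organs, at 79.0, 12.5 and 252 FPKM in muscle and 64.5, 114 and 127 FPKM in liver (-0.61 ± 0.92, limma adjusted p = 0.589), and so did Scd1, the desaturase, at 99.1, 172 and 711 FPKM in muscle and 432, 811 and 611 FPKM in liver (-1.37 ± 0.66, limma adjusted p = 0.104), and Acly, at 25.5, 10.4 and 119 FPKM in muscle and 65.0, 109 and 117 FPKM in liver (-1.52 ± 0.75, limma adjusted p = 0.114). Muscle replicate 3 was highest for all 3 genes, and it was also the highest for Adipoq. Without it, 14 of 18 were called higher in liver and 2 in muscle, and Fasn differed by -1.59 (limma adjusted p = 0.0942) and Acly by -2.45 (limma adjusted p = 0.00215). Of the genes for polyunsaturated fatty acids, the elongase Elovl2 differed by -7.17, the desaturase Fads1 by -4.28, and Fads2, a further desaturase, read 2.002, 3.77 and 4.53 FPKM in muscle and 203, 308 and 348 FPKM in liver (-6.03 ± 0.29). Srebf1, the regulator of lipogenic genes, read 13.6, 9.71 and 26.9 FPKM in muscle and 33.2, 136 and 142 FPKM in liver (-2.42 ± 0.58). Acacb, whose product malonyl-CoA restrains fatty acid entry into mitochondria, was the carboxylase of muscle at 85.2, 119 and 65.1 FPKM in muscle and 12.4, 27.9 and 23.6 FPKM in liver (2.05 ± 0.34), whereas Acaca, which serves synthesis, was not called (-0.39). The desaturase Scd2 was higher in muscle as well (1.86).

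Cholesterol synthesis and uptake genes were called higher in liver in 21 of 22 cases, with a median of -4.24. Sqle, the epoxidase of squalene, read 0.835, 0.502 and 1.55 FPKM in muscle and 96.1, 76.9 and 76.6 FPKM in liver (-5.45 ± 0.23), and Idi1, an isomerase of an earlier step, 0.579, 0.686 and 1.07 FPKM in muscle and 57.4, 76.5 and 79.4 FPKM in liver (-5.34 ± 0.20). Msmo1, a sterol oxidase of a later step, differed by -5.70. The exception was squalene synthase Fdft1 (-0.99, just under the required size). Genes for its removal as bile acids were called higher in liver in 18 of 19 cases: Cyp7a1, the rate-limiting enzyme, was at 0 in muscle and 167, 65.9 and 48.0 FPKM in liver, and the bile salt exporter Abcb11 differed by -7.39. Abcb4, a phospholipid exporter, was not called (-0.68).

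For iron and vitamin storage, 12 of 15 genes were called higher in liver. Ferritin divided by chain: the light chain Ftl1 read 182, 333 and 248.7 FPKM in muscle and 1876, 3101 and 2033 FPKM in liver (-3.20 ± 0.32), while the heavy chain Fth1 overlapped at 2301, 3369.7 and 3931 FPKM in muscle and 3202, 4679 and 3381 FPKM in liver (-0.24 ± 0.34, limma adjusted p = 0.553), though ferritin genes have many copies in the genome. Hamp, the hormone that blocks iron export, was at 0, 0.309 and 0.145 FPKM in muscle and 2069, 248 and 558 in liver (-9.17 ± 0.66). Hjv, a co-receptor that drives Hamp in liver, ran the other way at 388, 244 and 468 FPKM in muscle and 86.3, 76.2 and 50.4 FPKM in liver (2.34 ± 0.31). Retinol-binding Rbp4 (-8.71), vitamin D-binding Gc (-11.70) and the vitamin E carrier Ttpa (-7.70) were higher in liver.

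Of the lists on function, plasma carriers, coagulation genes and apolipoproteins had the largest median differences toward liver. All 40 plasma carriers and protease inhibitors tested were called higher in liver, with a median of -9.74, and the 41 listed genes took 24.6% ± 4.09 (SD, n = 3) of the summed FPKM of liver against 0.0464% ± 0.0171 of muscle. Ttr, the carrier of thyroid hormone and retinol-binding protein, read 0.256, 0 and 4.82 FPKM in muscle and 3970.3, 7040.4 and 6401 FPKM in liver (-11.50 ± 0.62). Haptoglobin (Hp), which binds free haemoglobin, read 57.3, 111 and 109 FPKM in muscle and 25851, 12191 and 9922 FPKM in liver (-7.35 ± 0.43), so its level in muscle was far above that of Alb or Ttr. Serpina1 and Mup genes have near-identical copies, and the split of reads among members is uncertain.

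All 22 coagulation genes were called higher in liver as well. Fibrinogen beta (Fgb) read 0.0546, 0.0498 and 0.452 FPKM in muscle and 6527, 3328 and 3679 FPKM in liver, a difference of -11.84 ± 0.29 (limma adjusted p = 2.67e-08), and prothrombin (F2) 0, 0.0275 and 0.491 FPKM in muscle and 759, 768 and 802 FPKM in liver (-9.40 ± 0.20). F8, coagulation factor VIII, which is made in endothelium, had the smallest difference of the list (0.210, 0.166 and 0.0720 FPKM in muscle and 1.30, 1.69 and 3.80 FPKM in liver, -1.43), and Pros1, an anticoagulant cofactor, the next smallest (-2.85). Plasminogen (Plg), whose active form dissolves clots, differed by -10.66.

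Of 24 complement genes 23 were called higher in liver, with C3, on which all pathways converge, at 64.5, 99.6 and 62.4 FPKM in muscle and 7711, 4769.6 and 7283 FPKM in liver (-6.43 ± 0.30). The 1 gene called higher in muscle was Cfd, factor D, also called adipsin, which starts the alternative pathway: it read 636, 827 and 1452 FPKM in muscle and 0.617, 0.0811 and 0 FPKM in liver, a difference of 9.57 ± 0.33 (limma adjusted p = 1.13e-07). Cfd is on the adipocyte marker list, and in muscle it was lowest in replicate 1 and highest in replicate 3, as was Cidec. The smallest differences toward liver were those of C1qa (29.1, 80.7 and 71.5 FPKM in muscle and 105, 176 and 118 FPKM in liver), C1qb (-1.46) and C1qc (-1.43), which macrophages make. All 3 lost their calls with each library brought to the same FPKM sum, and C1qa, at -1.22, also without muscle replicate 1, liver replicate 2 or liver replicate 3. Of 10 macrophage markers 9 were called higher in liver, their summed level was 72.2 to 179 FPKM in muscle and 416 to 671 in liver, and the Kupffer cell gene Clec4f was at 0 in muscle and 64.9, 148 and 118 FPKM in liver. Their part in the C1q difference was not tested. C1qa and C1qb are members of the marker list.

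Lipoprotein genes were mostly higher in liver. Of 23 genes for apolipoproteins and assembly, the calls were 2 higher in muscle and 20 higher in liver, with 1 not called, and the list took 7.80% ± 0.871 (SD, n = 3) of the summed FPKM in liver and 0.178% ± 0.0259 in muscle. Apob, the scaffold of very-low-density lipoprotein, read 0.0149, 0.00454 and 0.294 FPKM in muscle and 780.1, 607 and 1116 FPKM in liver (-9.53 ± 0.25), and Mttp, which loads it with lipid, 0.394, 0.459 and 0.421 FPKM in muscle and 80.6, 72.8 and 84.3 FPKM in liver (-5.81 ± 0.16). Apoe, made by many cells, stood at 138, 298 and 268 FPKM in muscle and 15449, 18396 and 16336 FPKM in liver (-6.22 ± 0.35). On the receiving side, Gpihbp1, which anchors Lpl in capillaries, was higher in muscle, with 24.0, 56.8 and 26.3 FPKM in muscle and 10.3, 8.33 and 6.48 FPKM in liver (1.88 ± 0.34), alongside Lpl itself. Of 10 endothelial markers 6 were called higher in muscle too, with 1 higher in liver and 3 not called. The summed level of the 10 was 154 to 168 FPKM in muscle against 60.5 to 75.7 in liver, and the part of endothelial cells in the Gpihbp1 difference was not tested. The other gene higher in muscle was Sar1b, the GTPase that forms COPII coats on secretory cargo (554, 727 and 703 FPKM in muscle and 171, 224 and 207 FPKM in liver, 1.72 ± 0.22). Angptl4, which inhibits Lpl, was higher in liver (-2.48).

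The machinery of secretion was mostly higher in liver as well. Of 46 genes of the endoplasmic reticulum and its export path, the calls were 1 higher in muscle and 39 higher in liver, with 6 not called, with a median of -2.06. The disulfide isomerase P4hb read 107, 83.7 and 98.1 FPKM in muscle and 1585, 1186 and 1043 FPKM in liver (-3.69 ± 0.24), the chaperone Hspa5 61.6, 55.5 and 53.0 FPKM in muscle and 594, 301 and 399.7 FPKM in liver (-2.85 ± 0.27) and the translocon subunit Sec61a1 3.62, 7.17 and 3.89 FPKM in muscle and 50.7, 37.4 and 40.4 FPKM in liver (-2.93 ± 0.26). Creb3l3, a liver regulator held in the reticulum membrane, differed most (-7.11). The exception toward muscle was Sar1b, and Mia3, which loads bulky cargo, was not called (-0.91). The list took 0.876% of the summed FPKM in liver and 0.333% in muscle.

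**Figure D5:**
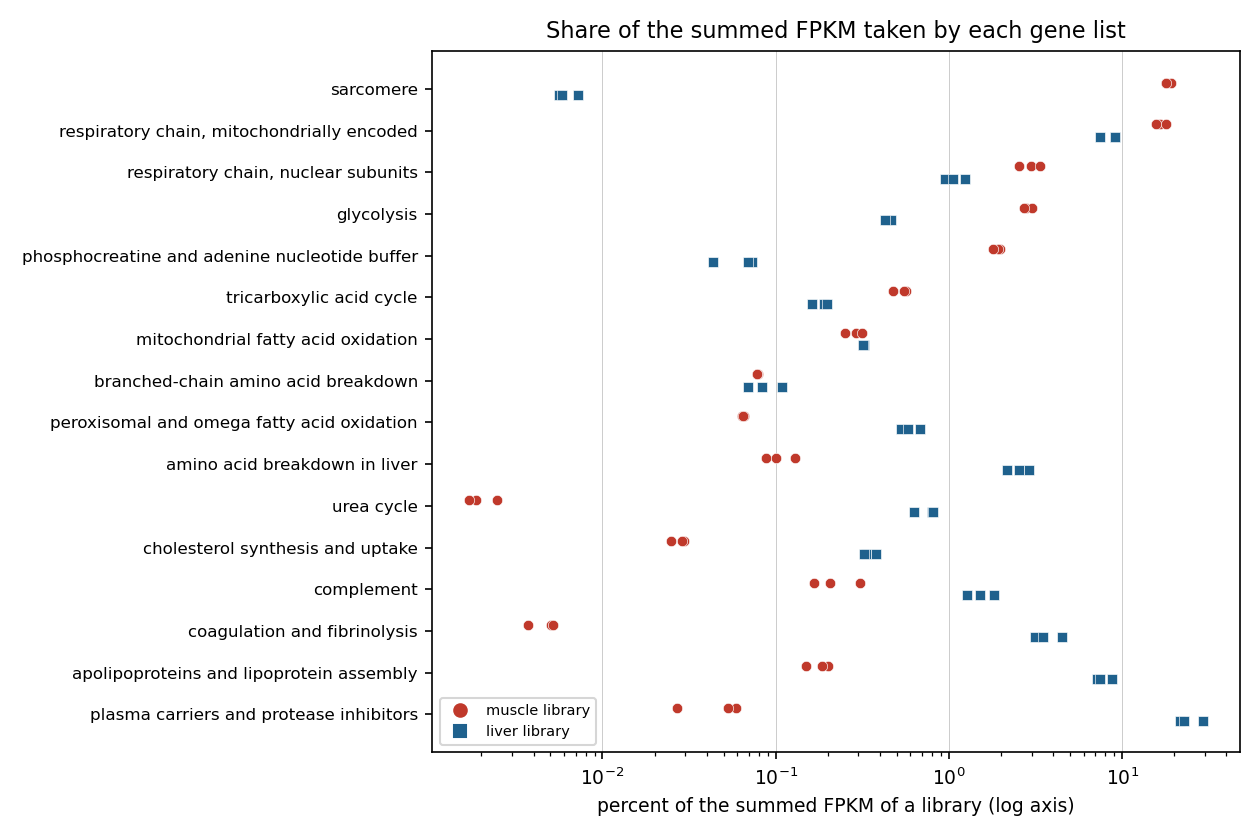
Percent of the summed FPKM of each IgG library taken by 16 gene lists, on a log axis, with muscle libraries as circles and liver libraries as squares. Sarcomere genes took 18.4% in muscle on average and plasma carriers 24.6% in liver, and the groups are apart in every list shown but the branched-chain one.

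Genes for hormones of liver were called higher there with few exceptions. Of 29 hepatokines and liver hormones, 27 were called higher in liver. Igf1, the growth factor released under growth hormone, read 3.36, 3.63 and 3.95 FPKM in muscle and 94.1, 86.9 and 94.9 FPKM in liver (-4.32 ± 0.16), and its binding partner Igfals differed by -4.38. Selenop, the selenium carrier, read 117, 293 and 157 FPKM in muscle and 2509, 3519.9 and 3379.8 FPKM in liver (-4.14 ± 0.36), and Agt, the precursor of angiotensin, differed by -5.72. The 1 listed hepatokine higher in muscle was Sparcl1, a matrix protein (63.3, 51.9 and 57.7 FPKM in muscle and 1.52, 1.73 and 1.88 FPKM in liver, 4.43 ± 0.17), and Angptl6 was not called (-0.60).

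Of 20 myokines tested, the calls were 11 higher in muscle and 4 higher in liver, with 5 not called. The shares were 55.0% and 20.0%, beside 19.8% and 22.8% of all genes tested. Myostatin (Mstn), the muscle's growth inhibitor, read 49.6, 108 and 30.5 FPKM in muscle and 0 in every liver library, at least 2037-fold higher against a floor of 3 reads over the liver libraries. Fndc5, the precursor of irisin, read 61.5, 39.3 and 36.2 FPKM in muscle and 0.103, 0.298 and 0.417 FPKM in liver (5.16 ± 0.24). The matrix proteins Dcn (225, 437 and 301 FPKM in muscle and 109, 75.7 and 55.1 FPKM in liver, 1.996 ± 0.33) and Sparc (2.24) are also products of fibroblasts. Of 10 fibroblast and stellate cell markers 7 were called higher in muscle, Dcn among them, with 1 higher in liver and 2 not called. The summed level of the 10 was 1993 to 2499 FPKM in muscle against 81.8 to 142 in liver. Most of the muscle sum was Des (2218, 1542 and 1607 FPKM), which muscle fibres express, and without it the sums were 282 to 509.9 FPKM in muscle and 79.3 to 139.5 in liver. Col1a1 read 8.66, 17.5 and 20.1 FPKM in muscle and 4.41, 1.81 and 2.80 FPKM in liver, and the part of these cells was not tested. The growth factor Vegfb was higher in muscle (2.54), whereas interleukin Il15 was not called (0.75). Igf1 is on this list as well and had its largest difference toward liver. The list took 0.163% of the summed FPKM in muscle.

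Genes for hormone receptors and their signaling divided by hormone. Of 30 receptor and signaling genes, the calls were 13 higher in muscle and 9 higher in liver, with 8 not called. The shares were 43.3% and 30.0%, beside 19.8% and 22.8% of all genes tested. The glucagon receptor Gcgr read 0, 0.0483 and 0.227 FPKM in muscle and 118, 161 and 143 FPKM in liver (-7.01 ± 0.19). The alpha-1 receptor Adra1b was higher in liver (-4.43). The insulin receptor Insr overlapped at 12.4, 16.3 and 8.51 FPKM in muscle and 19.4, 12.9 and 22.3 FPKM in liver (-0.53 ± 0.28, limma adjusted p = 0.139), while downstream parts differed: Irs1 (1.27), Akt2 (1.20) and Tbc1d4, the brake on Slc2a4 traffic that insulin releases (16.8, 7.69 and 15.99 FPKM in muscle and 0.235, 0.576 and 0.655 FPKM in liver, 3.22 ± 0.30), were higher in muscle. The muscle AMPK subunit Prkag3, on the same list, was higher in muscle too (3.91). Klb (-2.80) and Fgfr4 (-3.37), which together bind bile acid-induced FGF, and Prlr (-3.71), the prolactin receptor, were higher in liver.

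Transcription regulators were divided between the organs too. Of 17 muscle regulators, 16 were called higher in muscle, among them Myod1 (7.78, 7.38 and 28.2 FPKM in muscle) and Myf6 (117, 14.4 and 127 FPKM), both at 0 in every liver library, and Mef2c (24.1, 6.34 and 19.3 FPKM in muscle and 0.218, 0.319 and 0.351 FPKM in liver, 3.58 ± 0.42). Nfix was not called (0.58). Of 28 metabolic regulators, the calls were 2 higher in muscle and 16 higher in liver, with 10 not called. Hnf4a, the hepatocyte nuclear receptor, read 0.0970, 0.0524 and 0.443 FPKM in muscle and 248.6, 219 and 269.7 FPKM in liver (-7.70 ± 0.19), and Foxa3 was at 0 in muscle and 63.1, 37.1 and 43.2 FPKM in liver. Among the receptors that sense fatty acids, Ppara was higher in liver (3.05, 5.06 and 3.28 FPKM in muscle and 26.3, 21.3 and 50.1 FPKM in liver, -2.74 ± 0.32) and Ppard in muscle (16.9, 23.2 and 22.2 FPKM in muscle and 2.79, 2.96 and 2.79 FPKM in liver, 2.49 ± 0.18). Their shared coactivator Ppargc1a was not called and overlapped at 5.96, 2.40 and 3.87 FPKM in muscle and 4.32, 1.23 and 3.40 FPKM in liver. Mlxip, also called MondoA, a glucose-sensing regulator, was higher in muscle (2.63).

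The ICB libraries allowed the same comparison in samples that the IgG calls did not use. With 12500 genes tested, 2520 were called higher in muscle (20.2%) and 2780 higher in liver (22.2%). Of the 2421 IgG calls toward muscle, 2102 (86.8%) were called the same way with ICB, as were 2485 of the 2788 toward liver (89.1%), and 0 were called the opposite way. The shared calls were 83.4% and 89.4% of the ICB calls. Slc2a4 stood at 238, 219 and 211 FPKM in muscle and 0.104, 0.0937 and 0.106 FPKM in liver with ICB and Gys2 at 0.601, 0.171 and 0.0440 FPKM in muscle and 35.1, 73.5 and 43.8 FPKM in liver, and no muscle library overlapped a liver library in either. Fat cell markers were again present in muscle, with Adipoq at 50.1, 57.4 and 41.9 FPKM. A test of whether the organ difference changed with ICB found 0 of 13136 genes by limma, with a smallest adjusted p of 0.577 and 418 genes at an unadjusted p under 0.05. The count was 5 without liver ICB replicate 2, 1 without liver IgG replicate 1 and 1 without muscle IgG replicate 1. The 2 treatments shared no library.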

How the data were processed

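The deposited table holds FPKM made by the authors, 1 column per library. Per the submitters' processing notes reads were aligned to mm10 with HISAT2 2.1.0, and edgeR is among the named tools; for the counter, annotation and strandedness the sources used here give nothing. Per the labels' protocols, TRIzol RNA went into TruSeq libraries. Every value in all 18781 rows corresponds to whole reads (tolerance 0.001 reads), which gave the depths; few reads limit the precision of levels near 0. Libraries of an organ differed from each other by more than sampling noise. The 15 unnamed rows (0.0949% to 0.278% of the reads of the 6 libraries) and 3 symbols found in 6 rows were left out.

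Muscle and liver were compared with limma 3.58.1 (R 4.3.3; log2(FPKM + 1), mean-variance trend, two-sided, Benjamini-Hochberg), fitting only the 6 libraries. List shares, summed levels and isozyme shares are descriptions; the sums over a list include its members below the filter. A fold against an organ without reads uses a floor of 3 reads over its 3 libraries. The procedure was tested on simulated data. Gene positions are from GENCODE M21 (mm10) and promoters from RefSeq (GRCm38.p6). Python 3.11.15, numpy 2.4.6, pandas 2.3.3 and matplotlib 3.10.9 were used.

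The gene lists and the comparison were chosen with earlier results of these data known. Named genes are, per list, up to 8 called genes with the largest differences and no overlap, up to 4 against the majority and up to 4 not called; any member of an isozyme family; and the 10 largest differences each way and 10 highest levels per organ. Named outside that rule, after their values were seen, were Agt, Akt2, Angptl4, C1qa, C1qc, C3, Cyp1a2, Cyp2e1, Cyp7a1, F8, Gapdh, Gatm, Hspa5, Igfals, Igfbp1, Irs1, Irs2, Mttp, Myh1, Myh2, Ppara, Pros1, Sec61a1, Selenop, Serpina3n, Slc6a8, Sucla2 and mt-Atp6. Only part of the genes meeting the rule are printed, and some results are not reported here. Alternatives were a pseudocount of 0.1, no filter, 3 scalings, no trend, a fit of all 36 libraries, 2 other call rules, limma-voom on the recovered reads, the title number as a block, and leaving out each library; shares without each library were added after the data were seen.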

Additional observations from a re-analysis of the deposited data

How the results depend on the processing

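The IgG counts of 2421 genes higher in muscle and 2788 higher in liver stayed within 1.5 times of these values in all alternatives but 1: limma's treat, which tests against a difference of 1, called 1358 and 1808. The other settings gave 2421 to 3552 and 2188 to 3895. Bringing libraries to the same FPKM sum gave 3484 and 2188 and kept all 2421 muscle calls but only 78.5% of the liver calls. In the ICB libraries that scaling gave 3525 and 2147. Quantile normalization gave 2851 and 2533 and raised the median of all genes by 0.16. Leaving out each library gave 2360 to 2441 and 2720 to 2864, and kept 93.9% to 97.4% of the calls toward an organ. For the change of the organ difference with ICB, leaving out each library gave 0 to 5 genes.

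Of 204 named genes called, 0 changed direction in any alternative, 199 kept their call without each single library and 199 under all 3 scalings, whereas treat kept 180, losing among others Acads, Akt2, Bcat2, Cox8a, Gpihbp1, Irs1, Srebf1 and Ugp2. Called genes were named largely for large differences without overlap, so these counts do not stand for all calls. Among named genes not called, the sign turned for a few. On the scale of equal FPKM sums, Acaca was at 0.031, Fth1 at 0.24, Glul at 0.069 and Hadha at 0.22. With quantile normalization, Fth1 was at 0.50, Glul at 0.33 and Hadha at 0.15. Leaving out each library moved Acaca from -1.03 (without muscle replicate 3) to 0.20 (without muscle replicate 2), Fasn from -1.59 to 0.53 and Foxo1 from 0.92 to -0.20 for the same pair of libraries. The cause was not tested.

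A pair of title numbers occurs in both organs, and libraries of the same number correlated at 0.18 and 0.30 in their deviations from the organ means, but the labels do not say what the number marks. With the number as a replicate block the counts were 2423 and 2666, Glul was at 0.031, C1qa, Irs2, Ldha and Slc39a14 lost their calls, 6 mitochondrially encoded genes were called higher in muscle and 2 branched-chain genes higher in liver. The block left the count of genes whose organ difference changed with ICB at 0.

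With 3 libraries against 3, the smallest exact permutation p for a single value is 0.1, so shares carry no test. Genes without reads in 1 organ have a difference that depends on the added 1; with each at its floor, the median of any list moved by at most 0.017. Genes with near-identical copies or overlapping exons are uncertain, since the handling of multiply mapped reads and of strand is not given in the sources used here.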

Other observations

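All 4 nerve and satellite cell markers tested were called higher in muscle. Among them was Mbp, a protein of myelin, at 5.66, 5.76 and 6.08 FPKM in muscle and 0.316, 0.410 and 0.353 FPKM in liver (2.33 ± 0.15). Genes for the conjugation and oxidation of drugs and other foreign compounds were called higher in liver throughout their list, in 30 of 30 tested. Cyp3a11, a broad-range oxidase, read 0, 0 and 0.187 FPKM in muscle and 368, 1003 and 1670.02 FPKM in liver (-9.65 ± 0.48). Cyp2e1 was the member with the highest level in muscle on the hepatocyte marker list, at 83.0, 196 and 98.2 FPKM there and 4768, 3176 and 3734 FPKM in liver.

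Muscle replicate 2 stood apart from the other muscle libraries in further genes, chosen after their values were seen. Irs2, an insulin receptor substrate, read 8.37, 47.0 and 9.33 FPKM in muscle and 4.51, 5.42 and 4.12 FPKM in liver. Serpina3n, a protease inhibitor of the acute phase, read 3.76, 86.1 and 14.8 FPKM in muscle, and its highest liver value was in replicate 1, the library whose title carries the same number. Glul was highest in muscle replicate 2 as well. The muscle regulators Myf6 (117, 14.4 and 127 FPKM) and Mef2c (24.1, 6.34 and 19.3 FPKM) were lowest there. The labels do not say whether libraries of the same number came from the same mouse, and no test was made.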
